A study of Mus musculus with 14 samples.

Results

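The Hoxb, Hoxc and Hoxd clusters are described here from the peaks of 3 antibodies, against H3K4me2 (dimethylated lysine 4 of histone H3), WDR5 and MLL1, in chromatin immunoprecipitation sequencing (ChIP-seq) of mouse leukemia cells. All peaks touching 3 windows in mm9 coordinates were taken: chr11:96045000-96235000 over Hoxb (190 kb), chr15:102745000-102880000 over Hoxc (135 kb) and chr2:74490000-74615000 over Hoxd (125 kb). These held 156 of the 532629 peaks in the 10 lists, of which 103 were in Hoxb, 53 in Hoxd and 0 in Hoxc. The 10 genes followed were Hoxb3, Hoxb4, Hoxb5 and Hoxb9, Hoxc6, Hoxc8 and Hoxc9, and Hoxd3, Hoxd4 and Hoxd9. The windows were set by position and not by any measured value.

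All cells were mouse bone marrow cells transduced with the MLL-AF9 fusion (MAF9) and grown with 15% serum and IL-3 at 10 ng/ml. MAF9 cells received DMSO or 20 µM MM-401, an inhibitor that keeps WDR5 from binding MLL1, for 2 days. MAF9-transduced cells that were MLL1 flox/flox and ER-cre+/- received ethanol or 400 nM 4-hydroxytamoxifen (4OHT), which activates the Cre recombinase, for 2 days. H3K4me2 and WDR5 were mapped in all 4 conditions and MLL1 in DMSO and MM-401 only, with 1 library for each. Whether Mll1 was lost under 4OHT could therefore not be checked in these lists. The study describes genotyping as its measure of deletion efficiency. The MLL1 antibody recognises the C-terminal fragment, which the fusion lacks, so the MLL1 lists do not map MLL-AF9. Each antibody had 1 library in a condition, so there is no replicate error, no comparison could be tested, and every difference given is between 2 libraries. The lists give positions only, so depth and peak strength were unknown and a missing peak is one that was not called.

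Hox genes encode homeodomain transcription factors that lie side by side in 4 clusters and set position along the body axis. In blood, genes of the Hoxa and Hoxb clusters are active in stem and progenitor cells and are shut down on differentiation. Hoxb3 and Hoxb4 act in blood stem cells, Hoxb5 marks long-lived stem cells and Hoxb9 patterns the rib cage. MLL1 is a histone methyltransferase that keeps Hox genes active, WDR5 is a core subunit of its complex, and H3K4me2 marks active and poised promoters and enhancers. MLL1 carries a CXXC domain that binds unmethylated CpG, so the CpG content of the promoters is shown first.

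Promoter sequences were listed in RefSeq (GRCm38.p6) for 4 of the 10 genes, each 300 bases around the transcription start, most of them before it, on the + strand and with CpG in capitals. They are given to show how far the genes differ in CpG, and they were not set against the peaks, whose build differs.
Hoxb4: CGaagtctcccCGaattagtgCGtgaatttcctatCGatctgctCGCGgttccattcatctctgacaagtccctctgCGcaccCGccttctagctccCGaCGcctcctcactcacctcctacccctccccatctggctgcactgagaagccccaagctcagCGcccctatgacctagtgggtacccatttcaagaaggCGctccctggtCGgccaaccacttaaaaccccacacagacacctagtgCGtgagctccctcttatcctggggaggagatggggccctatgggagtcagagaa
Hoxd3: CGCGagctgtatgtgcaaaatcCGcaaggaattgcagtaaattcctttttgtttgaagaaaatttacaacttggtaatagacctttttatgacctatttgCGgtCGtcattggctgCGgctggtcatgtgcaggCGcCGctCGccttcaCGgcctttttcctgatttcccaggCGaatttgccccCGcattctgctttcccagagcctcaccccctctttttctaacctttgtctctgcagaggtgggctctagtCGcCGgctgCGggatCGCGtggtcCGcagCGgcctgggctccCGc
Hoxd4: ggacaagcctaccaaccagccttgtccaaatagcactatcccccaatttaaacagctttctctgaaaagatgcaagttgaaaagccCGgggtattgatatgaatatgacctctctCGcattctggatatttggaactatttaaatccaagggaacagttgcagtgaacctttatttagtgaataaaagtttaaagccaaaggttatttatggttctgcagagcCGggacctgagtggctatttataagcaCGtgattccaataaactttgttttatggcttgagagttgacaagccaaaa
Hoxd9: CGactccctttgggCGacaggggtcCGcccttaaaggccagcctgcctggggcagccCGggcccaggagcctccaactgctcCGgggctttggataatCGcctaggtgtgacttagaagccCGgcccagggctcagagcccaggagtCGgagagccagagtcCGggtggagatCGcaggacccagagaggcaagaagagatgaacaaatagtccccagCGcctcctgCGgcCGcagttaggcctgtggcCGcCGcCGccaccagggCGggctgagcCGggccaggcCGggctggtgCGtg
Hoxd3, which patterns the neck vertebrae, and Hoxd9, which acts in limb and lower spine, each held 20 CpG, and 26.8% of the 27025 genes with a listed promoter held at least as many. Hoxb4, which promotes self-renewal of blood stem cells, held 14, reached by 36.9% of promoters. Hoxd4, which acts at the hindbrain and upper spine, held 4, against a median of 7 over all promoters, and 68.1% of promoters held at least as many. CpG reads the same on both strands. The Hoxd4 promoter was the poorest in CpG of the 4, and no peak could be placed on any of them.

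Hoxc could be assessed in 1 list only. On chromosome 15 the 9 lists with HPeak names ended between 102453975 and 102529050, at least 215.95 kb before the Hoxc window. The DMSO MLL1 list, which has no HPeak names and for which the study describes MACS, ran on to 103165493, with 6 peaks past the last peak of every other list. It held 0 peaks in the Hoxc window, 3 in the 500 kb below and 6 in the 500 kb above. A count of 0 was common in that list, since 69.6% of tiles of the same length on the autosomes were empty. On 8 of 20 chromosomes the DMSO MLL1 list ran more than 500 kb past the other lists, with 177 peaks there, and the reason is not given in the sources used here. Chromosomes 2 and 11 were not among the 8. For Hoxc6, Hoxc8 and Hoxc9, trunk-patterning genes of the cluster, no H3K4me2 or WDR5 value can be given, and the absence of their peaks is not a measurement. The rest concerns Hoxb and Hoxd.

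In Hoxb, H3K4me2 was called at 18 peaks in DMSO, 20 under MM-401, 15 in ethanol and 13 under 4OHT. The peaks covered 31.7 kb, 29.9 kb, 31.3 kb and 28.3 kb in the same order. This was 16.7%, 15.7%, 16.5% and 14.9% of the window, with 95% exact Clopper-Pearson intervals, counted in whole kb of 1 library and so no measure of variation between libraries, that together ran from 10.0% to 22.9%. Over the 500 kb flanks of both sides, 8.81%, 8.30%, 10.2% and 9.05% of bases were covered. The cluster thus had from 1.61 (ethanol) to 1.89 (DMSO and MM-401) times the coverage of its flanks. With flanks of 1 Mb the difference in percentage points shrank from 7.88 to 3.68 in DMSO, from 7.42 to 4.04 under MM-401, from 6.27 to 1.77 in ethanol and from 5.82 to 2.02 under 4OHT, and with flanks of 250 kb it was 12.8 to 14.2 in DMSO, ethanol and 4OHT. The flanks were uneven, with 10.8% to 13.9% covered on the low-coordinate side, toward Ttll6, and 5.57% to 6.55% on the high side, toward Skap1. Across a whole list 3.54% to 3.93% was covered, and 5.11% to 7.13% of tiles of 190 kb had as much H3K4me2 as Hoxb. By number of peaks per 100 kb, the window held 9.47, 10.5, 7.89 and 6.84 and the flanks 8.4, 7.4, 10.0 and 7.5, so the excess in ethanol and 4OHT was in covered bases and not in the number of peaks.

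**Figure D1:**
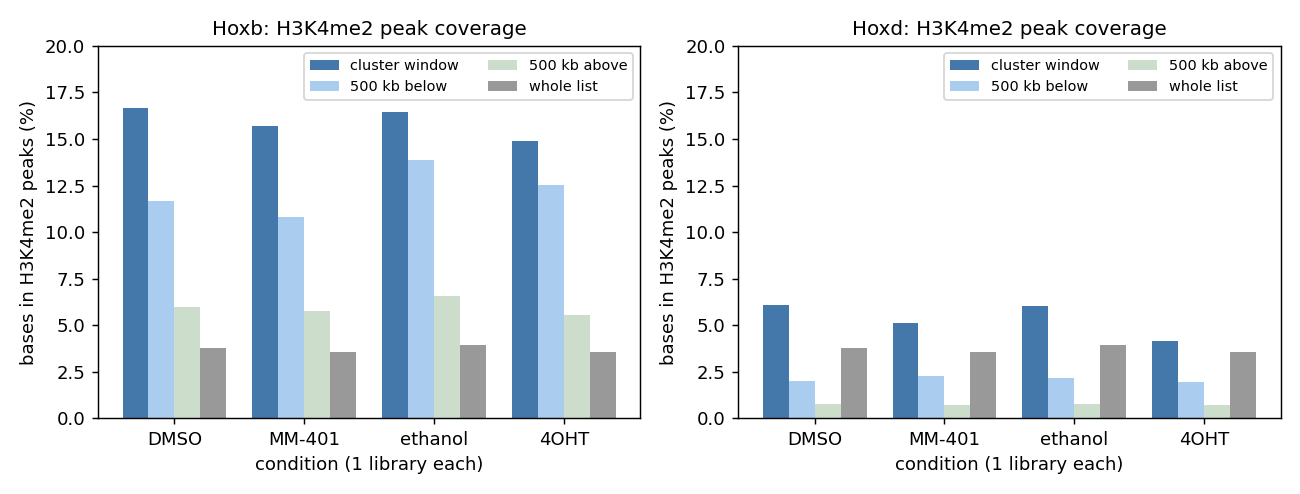
Percent of bases in H3K4me2 peaks (y axis) in the Hoxb (left) and Hoxd (right) windows, in the 500 kb below and above each, and over the whole list, for the 4 conditions with 1 library each. In Hoxb the window bars lie between 14.9% and 16.7%, above both sides, and in Hoxd between 4.16% and 6.10%, with sides at 2.27% or less.

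A single wide region carried most of the Hoxb excess. At chr11:96054126-96068525, 9.13 kb from the low edge, H3K4me2 spanned 14400 bp. In DMSO it was 1 peak of 14300 bp, in MM-401 1 peak of 14125 bp and in ethanol 1 peak of 14325 bp. Under 4OHT it was 3 peaks that together covered 14075 bp, the widest of 9775 bp. Its extent thus differed by 250 bp between the lowest and highest list. The DMSO peak ranked 49 by width among 105136 peaks, the MM-401 peak ranked 64 among 92025 and the ethanol peak ranked 187 among 100898. It lies at the end of the window where Hoxb13, the most posterior gene of the cluster, comes first in gene order, beyond which the order runs Hoxb9, Hoxb8, Hoxb7, Hoxb6 and Hoxb5. Without this region the cluster minus flank difference fell from 7.88 to 0.35 percentage points in DMSO, and was -0.01 under MM-401, -1.27 in ethanol and -1.59 under 4OHT. The region was taken out of the window only and the flanks kept all their peaks, so window and flanks were not treated alike here.

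A further wide region lay at chr11:96169951-96182150, 125 kb from the low edge, farther toward the end where Hoxb2 and Hoxb1 come last in gene order. Peaks covered 9625 bp of it in DMSO (5 peaks), 8925 bp under MM-401 (5 peaks), 12075 bp in ethanol (3 peaks) and 9925 bp under 4OHT (4 peaks). Ethanol was the highest of the 4 lists and MM-401 the lowest. Both wide regions together made up 75.5% of the covered bases in DMSO, 77.2% under MM-401, 84.3% in ethanol and 85.0% under 4OHT. Between them no list had H3K4me2 from 96068526 to 96116325, a stretch of 47.8 kb. The empty stretch ran to 77.3 kb in ethanol and 79.3 kb under 4OHT.

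**Figure D2:**
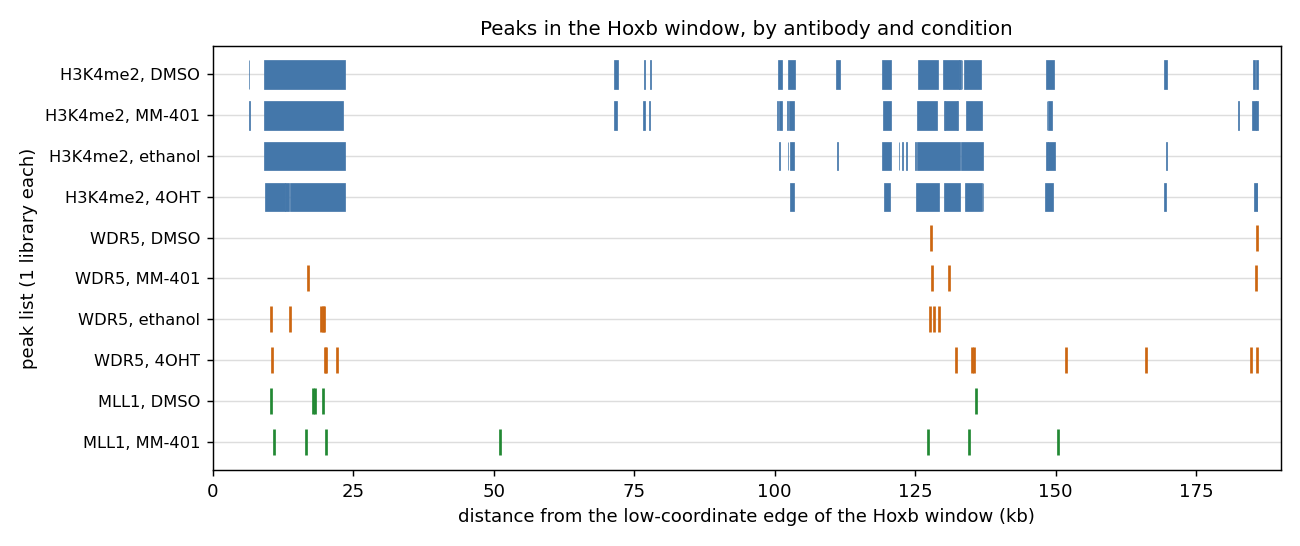
Peaks along the Hoxb window, with distance from its low-coordinate edge in kb on the x axis and 1 row per list, where blue blocks are H3K4me2 peaks to scale and ticks mark the centres of WDR5 (orange) and MLL1 (green) peaks. The wide block near 9 to 24 kb is in all 4 H3K4me2 lists, and 4 of the 5 DMSO MLL1 ticks stand on it.

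The 4 H3K4me2 lists merged into 18 regions in Hoxb, spanning 36.9 kb. Of these, 5 were in every list and made up 31.2 kb. Besides the wide pair they were 1200 bp at chr11:96147376-96148575, 1650 bp at chr11:96164101-96165750 and 1750 bp at chr11:96193076-96194825. The other 13 were 1100 bp or narrower. The MAF9 lists (DMSO and MM-401) shared 4 regions that neither flox list had, 1.75 kb in all, 3 of them starting 71.3 kb to 77.6 kb from the low edge, in the long empty stretch of the flox lists. Of the DMSO peaks 6 of 18 had no overlap in ethanol, near the 30.6% of all DMSO peaks, and 4 of 15 ethanol peaks had none in DMSO, where 34.3% of the list had none. Ethanol alone had 3 regions and MM-401 alone had 2. A region of 675 bp at 96155951 was called in both solvent controls, with 675 bp in DMSO and 300 bp in ethanol, and in neither treated list. A region at chr11:96229926-96231025 was in DMSO (675 bp), MM-401 (1025 bp) and 4OHT (600 bp) but not in ethanol. The study's own annotation names Hoxb1, a hindbrain-patterning gene, as the nearest gene there.

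Coverage in Hoxb moved with the background under both treatments. It fell by 5.76% of the DMSO value under MM-401, while the flanks fell by 5.71% and the whole list fell by 6.56%. It fell by 9.74% of the ethanol value under 4OHT, while the flanks fell by 11.3% and the list fell by 9.52%. Of the 18 DMSO peaks, 4 had no overlap of 1 bp or more under MM-401, where 30.5% of all DMSO peaks had none. The share kept was 77.8% (95% exact Clopper-Pearson interval 52.4% to 93.6%). Of the 15 ethanol peaks, 7 had no overlap under 4OHT, where 37.2% of all ethanol peaks had none, and 53.3% were kept (26.6% to 78.7%). In the reverse direction 2 of 20 MM-401 peaks (19.9% in the list) and 3 of 13 4OHT peaks (21.2% in the list) had no overlap in their control. The widest peak without a partner was 675 bp in DMSO and 300 bp in ethanol, so no peak of 1 kb or more was lost or gained. The counts are near their backgrounds.

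**Figure D3:**
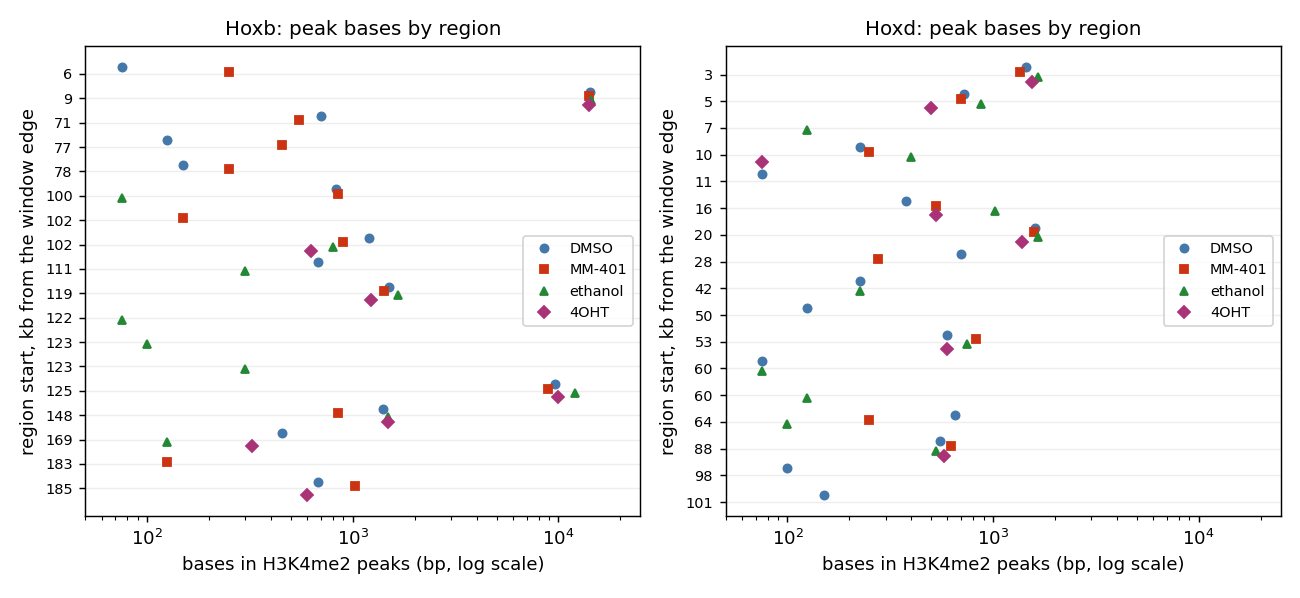
Bases in H3K4me2 peaks (x axis, bp, log scale) for each merged region of Hoxb (left, 18 regions) and Hoxd (right, 17 regions), ordered by distance from the low edge of the window, with 1 point per list and no point where a list had no peak. The wide Hoxb regions at 9 and 125 kb have all 4 points at 8925 bp or more, and every region under 300 bp has points from 1 or 2 lists.

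WDR5 peaks in Hoxb were few in the MAF9 lists and more in the flox lists. There were 2 peaks in DMSO, 4 under MM-401, 8 in ethanol and 11 under 4OHT, from lists of 14481, 17273, 34587 and 41054 peaks. The number rose with the length of the list, and the flanks held 11, 11, 28 and 52 peaks. Per 100 kb the window had 1.05, 2.11, 4.21 and 5.79 peaks and the flanks 1.1, 1.1, 2.8 and 5.2. By number the window was just below its pooled flanks in DMSO and above them in the other 3 lists. By covered bases it was 0.171%, 0.447%, 0.671% and 0.697% against 0.238%, 0.163%, 0.495% and 0.93% in the flanks, so it lay below them in DMSO and 4OHT and above them under MM-401 and in ethanol. The flanks were uneven here too, with 8, 8, 21 and 38 peaks on the low-coordinate side and 3, 3, 7 and 14 on the high side. Coverage on the low side was 0.345%, 0.22%, 0.785% and 1.38%, so the window lay above that side under MM-401 only. Over the lists 0.124%, 0.130%, 0.229% and 0.264% were covered, and 26.1%, 13.6%, 9.72% and 6.56% of tiles of 190 kb held as many WDR5 peaks as Hoxb. With each list cut to its 14481 widest peaks, Hoxb held 2, 4, 3 and 2 WDR5 peaks, so ethanol and 4OHT no longer stood above MM-401.

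The WDR5 peaks sat at few places. In DMSO they were chr11:96172726-96172825 (100 bp), inside the second wide H3K4me2 region, and chr11:96230626-96230850 (225 bp), at the site annotated to Hoxb1. Under MM-401 both were overlapped, by chr11:96172801-96173100 (300 bp) and chr11:96230551-96230800 (250 bp), where 59.9% of all DMSO WDR5 peaks had no overlap. MM-401 added chr11:96061901-96062100 (200 bp), in the first wide region, and chr11:96176051-96176150 (100 bp), so 2 of its 4 peaks had no DMSO overlap, where 65.8% of the list had none. In ethanol 5 of 8 peaks lay in the first wide region and 3 in the second. The ethanol peaks of the first region started at 96055301, 96058651, 96064026, 96064451 and 96064776 and were 75 to 375 bp wide. Those of the second started at 96172651, 96173301 and 96174126 and were 75 to 175 bp wide.

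Under 4OHT 4 of 11 WDR5 peaks lay in the first wide region, 3 in the second and 1 at the Hoxb1 site, chr11:96230676-96230875 (200 bp). The other 3 had no H3K4me2 peak in that condition. These were chr11:96229651-96229850 (200 bp), next to the Hoxb1 site, and, chosen after their values were seen, a 75 bp peak at 96196776 and a 125 bp peak at 96211076. The 8 ethanol and 11 4OHT peaks shared no base (0 of 8, an exact upper limit of 36.9%), where 81.5% of all ethanol WDR5 peaks had no overlap under 4OHT. Within 2 kb, 4 of the 8 had a partner, where 57.5% of the list had none. In DMSO (2 of 2), MM-401 (4 of 4) and ethanol (8 of 8) every WDR5 peak of the window overlapped H3K4me2 of its own condition, and 8 of 11 did under 4OHT. Over the whole lists, 11.3%, 12.3%, 45.7% and 52.9% of WDR5 peaks did not. The first wide region, with 4 MLL1 peaks in DMSO, held 0 WDR5 peaks in DMSO, 1 under MM-401, 5 in ethanol and 4 under 4OHT.

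**Figure D4:**
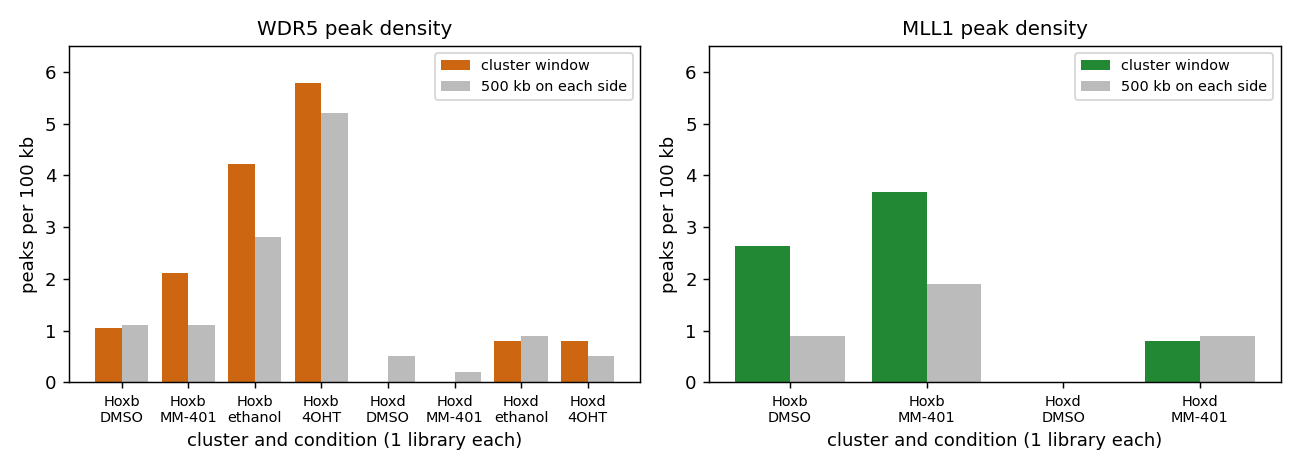
WDR5 (left) and MLL1 (right) peaks per 100 kb (y axis) in the Hoxb and Hoxd windows (coloured bars) and in the 500 kb on each side (grey bars), with 1 library per bar. MLL1 in Hoxb stands at 2.63 in DMSO and 3.68 under MM-401 against 0.9 and 1.9 in the flanks. The Hoxd window bars are at 0.8 or 0, and the Hoxd flank bars lie between 0 and 0.9.

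MLL1 was called at 5 Hoxb peaks in DMSO, 2.63 per 100 kb, with 9 peaks or 0.9 per 100 kb in the flanks and 0.325 over the list, and 1 of the 5 was among the widest 50% of its list. As a share, 1.25% of tiles of 190 kb held as many. Of the 5 peaks, 4 lay in the first wide H3K4me2 region, at chr11:96055329-96055498 (170 bp), chr11:96062850-96062994 (145 bp), chr11:96063159-96063378 (220 bp) and chr11:96064598-96064775 (178 bp). The other lay in the second wide region at chr11:96180804-96180950 (147 bp). All 5 overlapped H3K4me2 in all 4 conditions, where 48.4% of all DMSO MLL1 peaks had no H3K4me2 overlap in DMSO. None overlapped a DMSO WDR5 peak, where 94.4% of the list did not. The nearest DMSO WDR5 peak was 107951 bp or more away for the 4 and 7979 bp for the other.

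Under MM-401 MLL1 was called at 7 Hoxb peaks, 3.68 per 100 kb, with 19 peaks or 1.9 per 100 kb in the flanks. Of these flank peaks 16 lay on the low-coordinate side and 3 on the high side. The MM-401 list was longer, with 27345 peaks against 8525 in DMSO, and held 1.07 peaks per 100 kb. As a share, 6.71% of tiles of 190 kb held as many as Hoxb. The 7 peaks started at 96055901, 96061476 and 96065151 in the first wide region, at 96172201 and 96179451 in the second, and at 96096101 and 96195376 outside H3K4me2, and were 75 to 175 bp wide. Thus 5 of 7 overlapped H3K4me2 under MM-401, where 57.6% of the list did not. No DMSO MLL1 peak shared a base with an MM-401 MLL1 peak (0 of 5, an exact upper limit of 52.2%), where 94.7% of the list did not. All 5 had an MM-401 peak within 2 kb, where 75.7% of the list had none. The DMSO and MM-401 lists came from different callers, so condition and caller cannot be told apart here.

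In Hoxd, H3K4me2 was called at 17 peaks in DMSO, 10 under MM-401, 13 in ethanol and 10 under 4OHT. The peaks covered 7.63 kb, 6.38 kb, 7.53 kb and 5.2 kb, or 6.10%, 5.10%, 6.02% and 4.16% of the window, with exact intervals in whole kb that together ran from 1.31% to 12.2%. The flanks were poor, with 1.39%, 1.49%, 1.47% and 1.33% covered, so the window had 3.13 (4OHT) to 4.40 (DMSO) times the coverage of its flanks. With flanks of 1 Mb the difference in percentage points shrank from 4.71 to 2.61 in DMSO, from 3.61 to 1.62 under MM-401, from 4.55 to 1.94 in ethanol and from 2.83 to 0.42 under 4OHT. Against all tiles of 125 kb its covered bases were unremarkable, since 22.5% to 26.9% of them had as much H3K4me2. By number of peaks per 100 kb, the window held 13.6, 8.0, 10.4 and 8.0 and the flanks 1.5, 1.3, 1.5 and 0.7. As many peaks were held by 10.3%, 19.3%, 15.6% and 19.3% of tiles. No wide region was present, and the widest peak of each list measured 1600 bp (DMSO), 1575 bp (MM-401), 1650 bp (ethanol) and 1450 bp (4OHT).

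**Figure D5:**
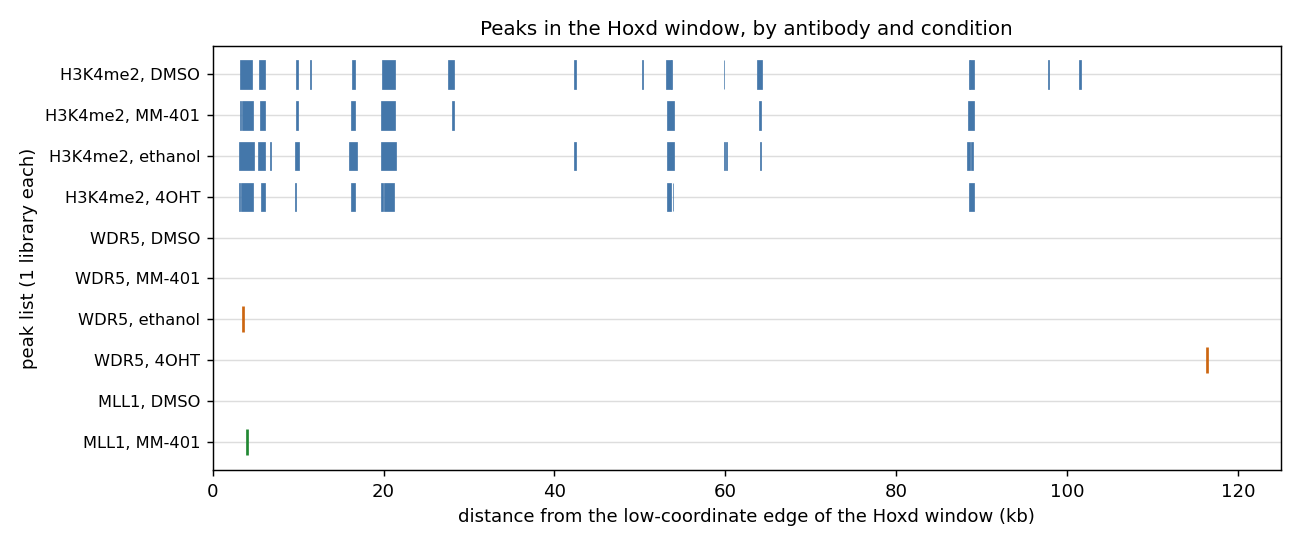
Peaks along the Hoxd window, with distance from its low-coordinate edge in kb on the x axis and 1 row per list, drawn as for Hoxb. H3K4me2 blocks crowd into the first 25 kb, WDR5 has 1 tick each in ethanol and 4OHT, and MLL1 has 1 tick under MM-401.

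The Hoxd marks gathered at the low-coordinate end, toward Evx2, where Hoxd13 and Hoxd12 come first in gene order, while Hoxd9 lies midway and Hoxd3, Hoxd4 and Hoxd1 come last. The first 25 kb held 4.45 kb of H3K4me2 in DMSO, 4.4 kb under MM-401, 5.73 kb in ethanol and 4.03 kb under 4OHT. That was 58.4%, 69.0%, 76.1% and 77.4% of the covered bases. The 4 lists merged into 17 regions spanning 9.88 kb, of which 7 were in every list and made up 7.43 kb. The widest of the 7 were chr2:74493076-74494775 and chr2:74509726-74511400. In the first, peaks covered 1450 bp (DMSO), 1350 bp (MM-401), 1650 bp (ethanol) and 1550 bp (4OHT), and in the second 1600, 1575, 1650 and 1375 bp in the same order. The remaining 10 regions were 700 bp or narrower, 4 of them in DMSO only, 2 in ethanol only and 2 in both solvent controls only. Between the solvent controls, 5 of 17 DMSO peaks had no overlap in ethanol (30.6% in the list) and 2 of 13 ethanol peaks had none in DMSO (34.3% in the list). No region was confined to a treated list, as 0 of 10 MM-401 peaks (19.9% in the list) and 0 of 10 4OHT peaks (21.2% in the list) lacked an overlap in their control, and with 10 peaks each these counts are small.

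Coverage of Hoxd fell by 16.4% of the DMSO value under MM-401, while it rose by 7.57% in the flanks and fell by 6.56% over the list. It fell by 30.9% of the ethanol value under 4OHT, while the flanks fell by 9.69% and the list fell by 9.52%. In covered bases it fell by 1.25 kb under MM-401 and fell by 2.33 kb under 4OHT, and with 1 library on each side no error can be put on either difference. With the widest 50% of each list, the MM-401 difference shrank from -1 to -0.14 percentage points and the 4OHT difference from -1.86 to -1.56. With equal numbers of the widest peaks they were -0.72 and -1.8. Under MM-401 6 of 17 DMSO peaks had no overlap and 64.7% were kept (38.3% to 85.8%). Under 4OHT 5 of 13 ethanol peaks had none and 61.5% were kept (31.6% to 86.1%). Both are near the 30.5% and 37.2% of the whole lists. The widest peak without a partner was 225 bp in both comparisons.

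WDR5 was called at 0 Hoxd peaks in DMSO and MM-401 and at 1 each in ethanol (chr2:74493526-74493650, 125 bp) and 4OHT (chr2:74606376-74606475, 100 bp), at opposite ends of the window. H3K4me2 was called over the ethanol peak in every condition and over the 4OHT peak in none. MLL1 had 0 peaks in DMSO and 1 under MM-401 (chr2:74493976-74494125, 150 bp), 326 bp from the ethanol WDR5 peak. The flanks held 5 WDR5 peaks in DMSO, 2 under MM-401, 9 in ethanol and 5 under 4OHT, or 0.5, 0.2, 0.9 and 0.5 per 100 kb. Against these the window had 0, 0, 0.8 and 0.8. For MLL1 the flanks held 0 peaks in DMSO and 9 under MM-401, or 0 and 0.9 per 100 kb, and the window had 0 and 0.8. An empty window was common, as 67.0% of tiles of 125 kb were empty for WDR5 in DMSO and 71.3% for MLL1 in DMSO.

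Hoxa, the cluster of the leukemia driver Hoxa9, was measured in the same way over 120 kb for comparison, as a description with no test. H3K4me2 covered 38.0% of it in DMSO, 37.9% under MM-401, 43.8% in ethanol and 36.5% under 4OHT, above Hoxb and Hoxd in every list. It held 11, 3, 16 and 25 WDR5 peaks, and 8 MLL1 peaks in DMSO and 12 under MM-401. Under MM-401 WDR5 went from 11 to 3 peaks in Hoxa and from 2 to 4 in Hoxb, while the list went from 14481 to 17273. The Hoxa flanks went from 6 to 10 peaks and the Hoxb flanks held 11 in both. Of the DMSO WDR5 peaks, 9 of 11 in Hoxa and 0 of 2 in Hoxb had no overlap under MM-401, where 59.9% of the list had none. Hoxb shared with Hoxa a wide H3K4me2 region with most DMSO MLL1 peaks (7 of 8 in Hoxa, 4 of 5 in Hoxb). In Hoxa it was 28450 bp long with the 4 lists merged, and in DMSO it was 7 peaks covering 26150 bp. Hoxd had no wide region and 0 DMSO MLL1 peaks. The share of all DMSO MLL1 peaks in regions this wide was not counted.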

How the data were processed

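ChIP-seq for H3K4me2, WDR5 and MLL1 gave 10 peak lists, 1 per library, and the 4 inputs of the 14 samples were not analysed here. The authors deposited positions only (chromosome, start and end), with no count, score or p-value, so depth is unknown. The submitters' processing notes name Bowtie and mm9, and the thresholds of the HPeak lists are not given in the sources used here, while the study gives a p-value cutoff for MACS on MLL1. In 9 lists peaks carry HPEAK names and lie on a grid of 25 bp, and both ends were counted from 1. The DMSO MLL1 list has neither, the study describes MACS for it, and its starts were read as 0-based. Each ChIP used 15 µl of antibody.

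Peaks touching a window were counted with Python 3.11.15 and numpy 2.4.6, covered bases were clipped to it, and flanks were 500 kb on each side. Overlap required 1 bp. Shares carry 95% exact Clopper-Pearson intervals (scipy 1.17.1), which cover counting error only and treat neighbouring kb or peaks as independent. Whole-list coverage, peaks per 100 kb and tile values run to the last position all lists reach. Whole-list shares without overlap are over every peak of a list. For DMSO MLL1 these include 177 peaks past the ends of the HPeak lists, which no peak of those lists could overlap. The interval code was tested on simulated intervals. Peaks named are the widest H3K4me2 peak per window and list and the WDR5 and MLL1 peaks, the 3 widest where a list had over 10. The wide pair, the first 25 kb of Hoxd and region starts in single lists were added after the values were seen. Gene order came from RefSeq (GRCm38.p6). Since builds differ, no peak was assigned to a gene here and the planned cell marker check was not run. The name Hoxb1 site rests on the study's annotation only. Members and lists were chosen with earlier results of these data known.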

Additional observations from a re-analysis of the deposited data

Results flagged for a closer look

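The number of H3K4me2 peaks in Hoxb moved in opposite directions under the 2 treatments. It rose by 2 under MM-401 (18 to 20 peaks) and dropped by 2 under 4OHT (15 to 13 peaks). The treatments were given to different cells with 1 library each, so the difference was not tested. Covered bases fell under both. Peak number also depends on how a region is split, so these are not counts of sites gained or lost. MM-401 had 2 peaks where DMSO had 1 in the regions starting at 96145426 and 96193076. Under 4OHT the first wide region was 3 peaks where ethanol had 1.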

How the results depend on the processing

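Other settings gave 88 values inside an exact interval set around the reported one, or within 1.5 times for a count. Another 19 moved further and 3 changed sign. For a difference, the interval was that of the window or treated window alone, shifted by the flank or control value. It covers counting in 1 library only and is wide, from -4.318 to 4.055 for the Hoxd MM-401 difference of -1. A value inside it is therefore no measure of stability. The Hoxb H3K4me2 difference between window and flanks was 14.21 points in DMSO, 14.02 in ethanol and 12.79 under 4OHT with flanks of 250 kb, and with flanks of 1 Mb it was 3.682, 1.766 and 2.018, with 4.041 under MM-401. In Hoxd flanks of 1 Mb gave 2.609 in DMSO, 1.621 under MM-401, 1.94 in ethanol and 0.4187 under 4OHT. Without the widest region, a setting chosen after seeing the data, the Hoxb difference was 0.3528 in DMSO, -0.01307 under MM-401, -1.268 in ethanol and -1.592 under 4OHT. That region holds most of the Hoxb excess, and the flanks were left whole in this setting. In Hoxd the same setting gave 3.552, 2.527, 3.23 and 1.592 in the same order. When a partner within 2 kb was enough, 86.67% of Hoxb ethanol H3K4me2 peaks were kept under 4OHT. With the widest 50% of each list, WDR5 in Hoxb had 1 peak in DMSO, 3 in ethanol and 2 under 4OHT, MLL1 in Hoxb had 1 in DMSO, and WDR5 in Hoxd had 0 in ethanol and 0 under 4OHT. With equal numbers of the widest peaks, WDR5 had 3 Hoxb peaks in ethanol and 2 under 4OHT, and 0 in Hoxd in both. With window edges moved in by 10 kb, WDR5 in Hoxb had 1 peak in DMSO, and in Hoxd WDR5 had 0 in ethanol and 0 under 4OHT and MLL1 had 0 under MM-401. The order of the WDR5 counts between ethanol and 4OHT thus turned when lists were cut by width. No alternative gave values for Hoxc in the 9 lists that end before it.

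No paired analysis was possible because each condition and antibody had 1 library and no test was run. Depth and peak strength are unknown, so width stood in for rank. A peak missing from a list is one that was not called.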
